A study of Mus musculus with 20 samples.

Results

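The comparison described here sets cultured mouse progenitors with 1 knockout allele of Runx2 (het) against wild-type progenitors (WT). It used 6 RNA-seq libraries of the 20 samples in the series, 3 het and 3 WT, taken from the table of raw gene counts by the genotype in their names. All 49997 genes of that table entered, and 13855 had enough counts to be tested. The progenitors, called HPC in the labels, were primary bone marrow cells in culture, positive for Kit and Sca1, negative for lineage markers, and negative for CD201 and CD150, the last 2 being antigens that mark the stem cell fraction. The series also holds 3 HPC libraries that were homozygous for the knockout (hom) and 9 libraries, in the same 3 genotypes, of CD201-positive CD150-positive cells, called HSC. By its title, the study asked how Runx2 acts on the growth of stem cells and on the choice of the T lineage. Floxed mice and CRISPR are both mentioned in the design text, with nothing in the labels to tell which method made any 1 library, what drove deletion, how old the mice were, or whether replicates came from separate animals or cultures. All p-values therefore rest on library-to-library spread, and that spread may be only technical.

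Runx2 encodes a transcription factor that binds DNA through the Runt domain that it shares with Runx1 and Runx3, with CBFB as a partner that strengthens binding. It is best known as the factor that directs osteoblast formation, while Runx1 is the family member required for the first blood stem cells and Runx3 acts in T cells. A Kit-positive, Sca1-positive, lineage-negative progenitor that lacks the stem cell antigens has begun to choose between myeloid, megakaryocytic and lymphoid fates, and the transcripts of those programmes can be read in such cells before surface antigens change.

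Runx2 itself fell only slightly. On the forward numbering of the mm10 annotation used for counting, the gene spans chr17:44495987-44814797, on the minus strand, and its exons overlap no other annotated gene. Its level was 112, 120 and 119 CPM (counts scaled by library size and TMM factor) in the 3 WT libraries and 98.7, 100 and 92.0 CPM in the 3 het libraries. No het library reached the lowest WT library. The mean went from 117 ± 4.40 to 97.0 ± 4.40 CPM (SD, n = 3), which left 82.7% of the WT level, and the log2 fold change was -0.27 ± 0.06 (SE of the fit, adjusted p = 0.00392). In the hom libraries Runx2 stood at 21.9, 20.9 and 23.0 CPM. The counts are summed over all exons of the gene, and the labels do not say which part was deleted, so reads from a disrupted allele may be included.

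Runx1, the family member with the highest level here, rose a little. It measured 220, 236 and 233 CPM in WT and 276, 270 and 255 CPM in het, with no overlap between the groups (log2 0.22 ± 0.06, adjusted p = 0.0206). The call was lost when het replicate 1 (adjusted p = 0.0877), het replicate 2 (0.0741) or WT replicate 1 (0.0859) was left out. Runx3 was at 147, 160 and 154 CPM in WT and 127, 144 and 129 CPM in het. All 3 het values were below the WT values, and the difference of -0.20 ± 0.08 on the log2 scale did not pass the test (adjusted p = 0.0903); it did pass in a fit of the 6 libraries alone (0.0295). Runx3 also lies on an alternate contig of the annotation, so its level is uncertain. Cbfb overlapped between the groups (218 ± 12.3 CPM in WT, 202 ± 8.93 CPM in het, adjusted p = 0.232). Of 14 tested RUNX factors and cofactors, 2 rose (14.3%) and 1 fell (7.14%), against 9.15% and 6.99% of all tested genes. None rose without het replicate 2 or WT replicate 1. Besides Runx1, the rise was in Tle3, a corepressor recruited by RUNX proteins, from 112 to 138 CPM (log2 0.31, adjusted p = 0.0128). Tle3 was not called without het replicate 2 (adjusted p = 0.0936), WT replicate 1 (0.0515) or WT replicate 3 (0.0668).

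**Figure D1:**
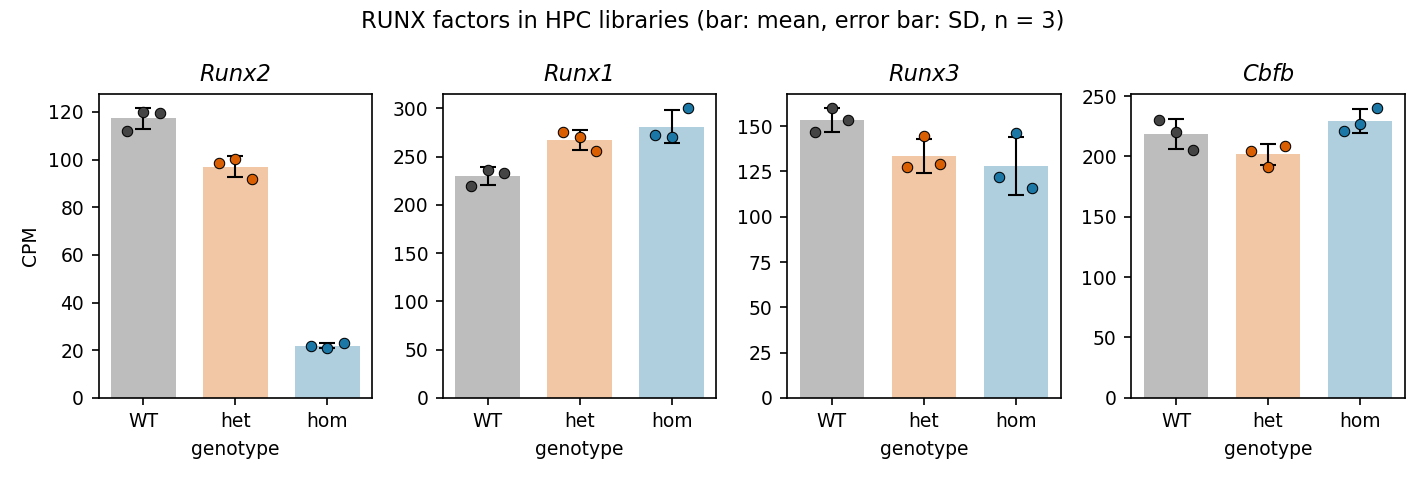
Level of Runx2, Runx1, Runx3 and Cbfb in CPM in each HPC library of the WT, het and hom genotypes; bars are means, error bars the SD of 3 libraries, and every axis starts at 0. The Runx2 bars stand at 117, 97.0 and 21.9 CPM.

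Beyond Runx2, 2236 of the 13855 tested genes were called at an adjusted p under 0.05, which is 16.1%. Of these, 1268 rose (9.15% of tested genes) and 968 fell (6.99%). The changes were mostly small: the median absolute log2 fold change of called genes was 0.39, and the interquartile range ran from 0.27 to 0.67. A rise of more than 1 on the log2 scale was called for 159 genes (1.15%) and a fall of more than 1 for 124 (0.895%). The 3 het libraries lay entirely above or below the 3 WT libraries for 4691 genes (33.9%). Calls were spread over all autosomes and the X chromosome, at 12.2% to 19.7% of the tested genes of each.

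**Figure D2:**
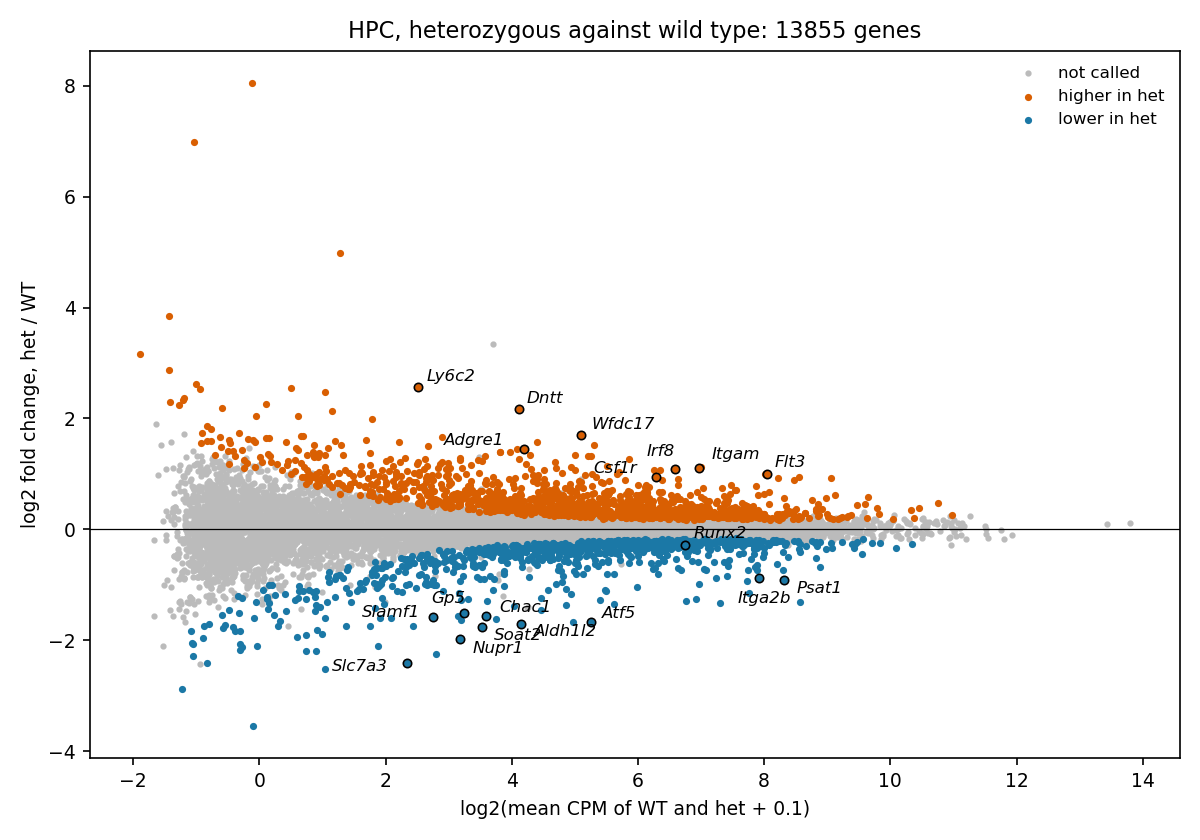
Log2 fold change of het over WT against the mean level of each of the 13855 tested HPC genes; orange points were called higher, blue points lower, and circled genes are named. Runx2 lies close to the zero line. Among called genes with a mean of at least 5 CPM in 1 group, Ly6c2 and Dntt lead the rises and Slc7a3 leads the falls. That ranking leaves out predicted genes and genes whose libraries overlapped. The orange points above 3.5 are genes at or near 0 counts in WT, where the fitted value is no measure of size.

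The WT libraries held 21386411 to 22284511 counts and the het libraries 16663497 to 20633138, so 3 counts correspond to between 0.135 and 0.18 CPM. Mitochondrial genes took 1.76% to 2.39% of WT counts and 1.92% to 2.29% of het counts. Correlations of log2 CPM across genes were 0.993 to 0.994 between WT libraries and 0.991 to 0.992 between het libraries. One library differed in stress genes: Fos, the first gene induced by many stimuli, was at 68.2 CPM in het replicate 1 and at 1.54 and 0.974 CPM in the other het libraries, against 3.63, 1.26 and 1.92 CPM in WT. All HPC libraries had high Xist and 0 counts of the Y-linked gene Ddx3y, while all HSC libraries had Ddx3y and almost no Xist, so population and sex cannot be told apart in any comparison of HPC with HSC.

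The antigens of the sort were read as transcripts first. Kit, the stem cell factor receptor, was abundant and rose from 421 ± 37.1 to 547 ± 21.4 CPM (log2 0.38 ± 0.07, adjusted p = 0.000997). Slamf1, which encodes CD150, was low and fell, from 9.09, 8.82 and 12 CPM in WT to 3.00, 3.90 and 3.12 CPM in het (log2 -1.58 ± 0.19, adjusted p = 1.62e-05). Procr, which encodes CD201, was also low, at 5.22 ± 0.563 CPM in WT and 6.46 ± 1.04 CPM in het, and its groups overlapped (adjusted p = 0.288). Ly6a, which encodes Sca1, was listed at 0 counts in all 18 RNA-seq libraries of the series although the cells were sorted for it, and nothing is read from that. Other progenitor antigens were present: Cd34 averaged 657 CPM in WT and 747 CPM in het, Cd48 168 and 191 CPM, and Ptprc, which encodes CD45, 462 and 557 CPM. Of these 3 only Ptprc was called (log2 0.27, adjusted p = 0.00612).

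Of the lineage antigens, Cd3e, Cd8a and Ly6g had too few counts to be tested, and Cd4 averaged 0.400 CPM in WT and 0.778 CPM in het and was not called. Itgam, which encodes CD11b and belongs to many lineage cocktails, was the exception, at 78.1, 86.6 and 73.4 CPM in WT and 177, 180 and 158 CPM in het. Of 21 genes that mark stromal, endothelial or other cells from outside the blood, 6 could be tested and 7 had 0 counts in all 6 libraries. The summed level of the 21 was 113 to 139 CPM in WT and 108 to 122 CPM in het. One of the 6 was called: Kdr, a VEGF receptor, fell from 14.1 to 9.22 CPM.

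The data were then read by gene lists of lineage, signalling, cell cycle and metabolism, 37 in all, whose members can belong to more than 1 list. For each list the number of members called in each direction is given beside the 9.15% and 6.99% of all tested genes, and the median log2 fold change beside the all-gene median of 0.00. No test was made of a list as a whole.

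**Figure D3:**
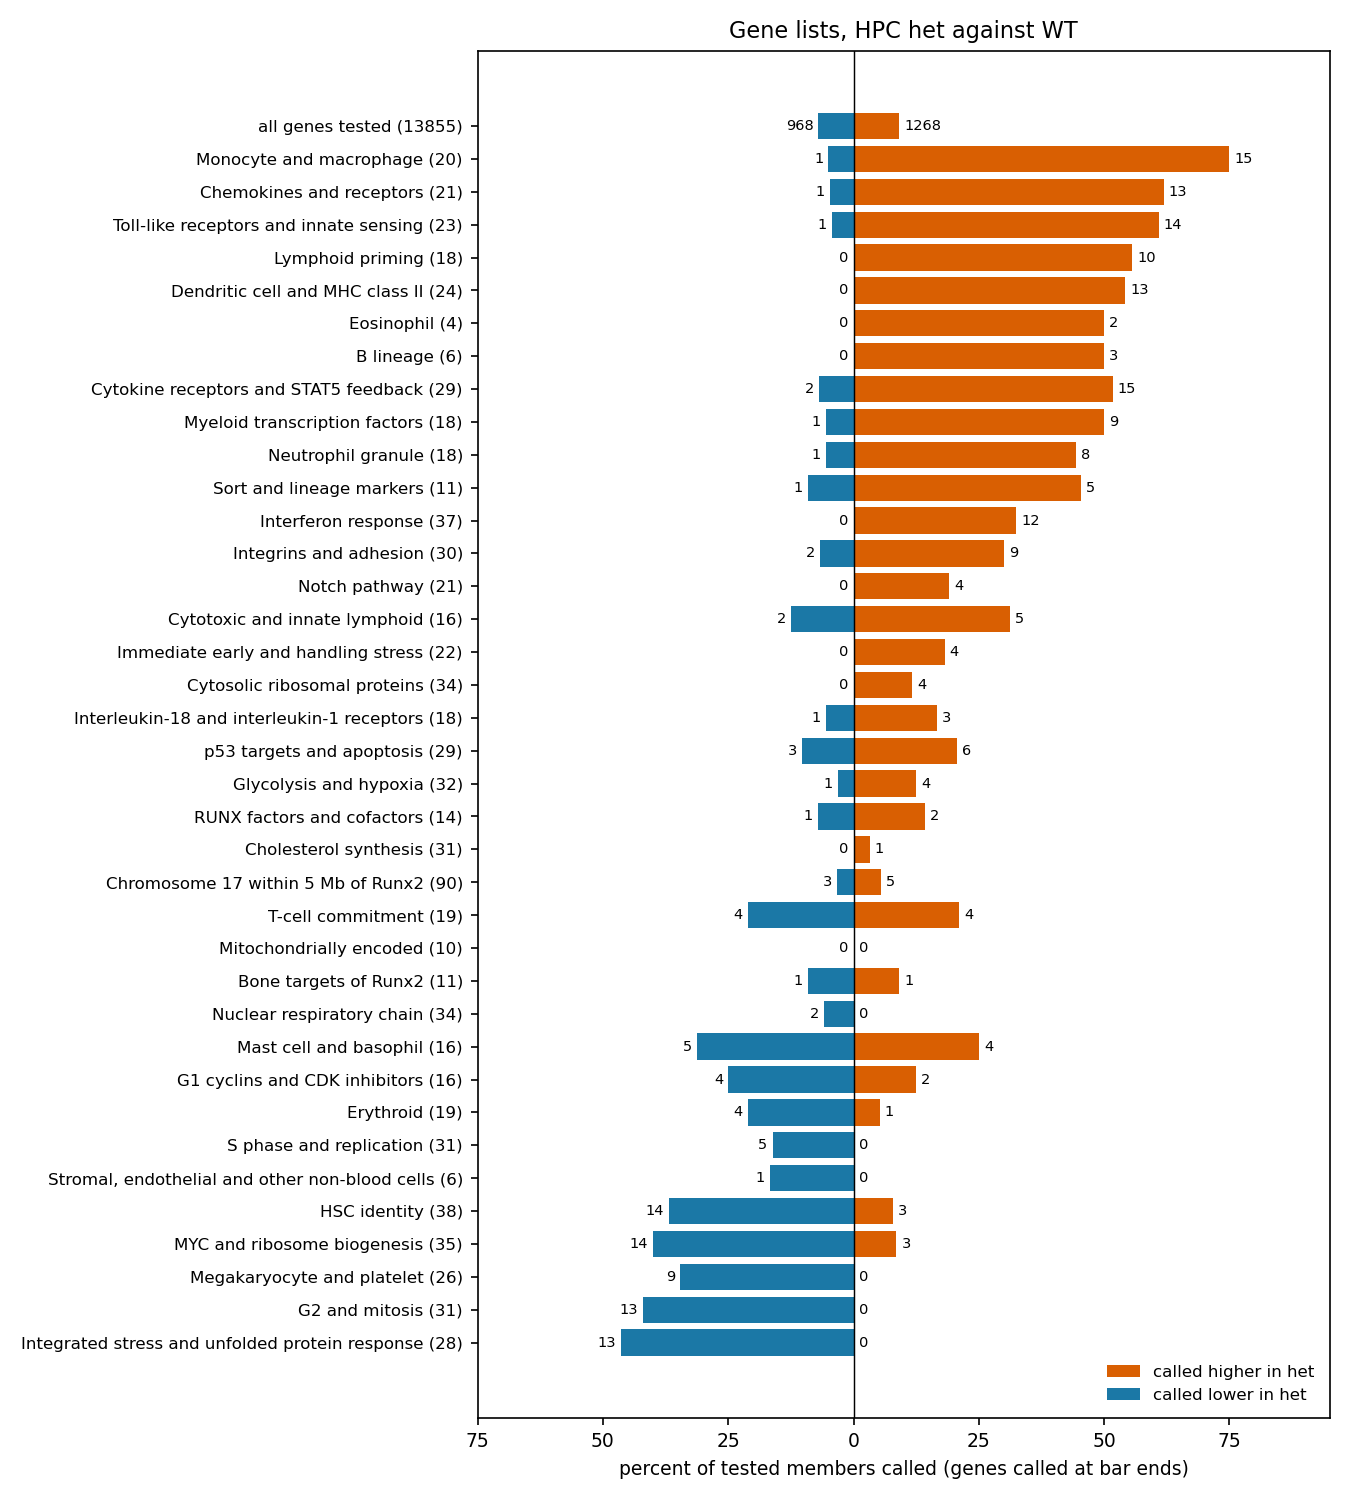
Percentage of tested members of each of 37 gene lists that were called higher (orange, right) or lower (blue, left) in het HPC, with the number of genes at the end of each bar and the number tested in parentheses; the top row is all tested genes. Monocyte and macrophage genes have the largest share of rises (15 of 20) and genes of the integrated stress and unfolded protein response the largest share of falls (13 of 28).

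Most monocyte and macrophage genes rose. Of 20 tested members, 15 rose and 1 fell, with a median log2 fold change of 0.74. Ly6c2, a surface antigen of inflammatory monocytes at chr15:75108161-75112066, was at 1.88, 1.35 and 1.62 CPM in WT and 10.9, 8.17 and 9.79 CPM in het (log2 2.57 ± 0.16, adjusted p = 1.32e-08). It was the steepest called rise among genes that reached a mean of 5 CPM without overlap between the groups, leaving predicted genes aside. Adgre1, which encodes the macrophage antigen F4/80, went from 9.71 ± 0.458 to 26.5 ± 0.830 CPM (log2 1.45 ± 0.09). Itgam rose from 79.4 ± 6.67 to 172 ± 12 CPM (log2 1.11 ± 0.07, adjusted p = 1.32e-08). F13a1, the A chain of coagulation factor XIII made by monocytes, rose from 16.4 to 35.3 CPM. In bulk RNA more cells of a kind and more RNA per cell cannot be told apart.

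Csf1r, the receptor for the macrophage growth factor M-CSF, stood at 48.6, 60.3 and 51.9 CPM in WT and at 102, 111 and 93.9 CPM in het (log2 0.94 ± 0.08, adjusted p = 3.76e-07). Lyz2, the myeloid lysozyme, rose from 172 to 296 CPM, and Cybb, the catalytic subunit of the phagocyte oxidase, from 131 to 197 CPM. The chemokine receptors of monocytes Ccr2 (log2 0.69) and Cx3cr1 (log2 0.56) rose as well. The member that fell was Tnf, from 13.6 to 9.91 CPM. Klf4, Mrc1, Cd14 and Fcgr1 did not pass the test, and the first 2 and Fcgr1 averaged under 1 CPM in WT. The mean of the list, relative to WT, was 0.77, 0.70 and 0.77 on the log2 scale in the 3 het libraries and between -0.09 and 0.07 in the WT libraries, so the 3 het libraries were close to each other.

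Granule genes of neutrophils followed in part. Of 18 tested members 8 rose and 1 fell, with a median of 0.36. The list mean relative to WT was 0.63, 0.10 and 0.45 on the log2 scale in het replicates 1, 2 and 3. In the WT libraries it was 0.21, -0.09 and -0.11, so the groups overlapped. Prtn3, proteinase 3, was at 157, 143 and 127 CPM in WT and 241, 228 and 231 CPM in het (log2 0.72 ± 0.09, adjusted p = 4.24e-05). Elane, neutrophil elastase, rose from 30.5 to 55.0 CPM, and Mpo, myeloperoxidase, from 1214 to 1579 CPM (log2 0.38). Lbp, listed here although its lipopolysaccharide-binding product is not a granule protein, rose from 46.7 ± 2.65 to 80.9 ± 2.85 CPM (log2 0.79). It averaged 44.3 CPM in WT HSC. Ctsg, cathepsin G, rose by 0.30 on the log2 scale. Mmp8, the neutrophil collagenase, was called higher at very low counts, 8 over the WT libraries and 41 over the het libraries (log2 2.54, adjusted p = 0.00507). The calprotectin pair and several genes of late granules did not pass: S100a9 averaged 2.85 CPM in WT and 4.35 CPM in het, S100a8 1.79 and 2.56 CPM, Ngp 3.37 and 4.28 CPM, and Camp 0.411 and 0.358 CPM. Nkg7, listed here and with the cytotoxic genes, fell from 86.1 to 72.0 CPM.

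The eosinophil granule genes Prg2 and Prg3 were the 2 members called of 4 tested. Prg2, the major basic protein, was at 12.3, 12 and 10.0 CPM in WT and at 23.9, 23.9 and 29.8 CPM in het (log2 1.18 ± 0.13, adjusted p = 5.72e-06). Mast cell and basophil genes went both ways, with 4 higher and 5 lower of 16. The 4 rises became 1 without WT replicate 2 and 2 without het replicate 1 or WT replicate 3. Cpa3, a mast cell carboxypeptidase, rose by 0.28 and Hdc, which makes histamine, by 0.35 on the log2 scale. Fcer1a, the alpha chain of the high-affinity IgE receptor, fell from 10.7, 13.7 and 17 CPM to 3.36, 4.22 and 5.6 CPM (log2 -1.64 ± 0.21, adjusted p = 0.000106). Gzmb, granzyme B, fell from 165 ± 9.20 to 83.6 ± 10.3 CPM (log2 -0.98 ± 0.08), and Alox5, 5-lipoxygenase, from 24.8 to 13.7 CPM. The summed level of the list hardly differed, at 1206 to 1232 CPM in WT and 1176 to 1225 CPM in het.

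Transcription factors of the myeloid lineages rose in 9 of 18 cases, and 1 fell (median 0.35). Without WT replicate 3 the number of rises was 5. Irf8, which directs monocyte and dendritic cell formation, at chr8:120736358-120756694, was at 56.6, 69.9 and 57.7 CPM in WT and 132, 135 and 126 CPM in het (log2 1.10 ± 0.08, adjusted p = 6.09e-08). Zeb2, a repressor active in monocytes, rose from 138 to 191 CPM. Cebpa, the factor of the granulocyte and monocyte progenitor, rose from 101 ± 4.58 to 129 ± 8.30 CPM (log2 0.35 ± 0.06), and Spi1, which encodes PU.1, from 102 to 121 CPM (log2 0.24). Gfi1 and Cebpd rose by 0.49 and 0.48. Cebpb did not differ past the test (23.2 and 23.8 CPM), and Ets2 fell by 0.38.

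Genes of dendritic cells and of MHC class II rose in 13 of 24 cases, and none fell (median 0.45). Leaving out het replicate 2 brought the number to 8. H2-Ob, a chain of the DO molecule that tempers peptide loading, was at 73.2, 88.8 and 79.1 CPM in WT and 184, 173 and 171 CPM in het (log2 1.13 ± 0.08, adjusted p = 3.44e-08). H2-Oa, its partner, rose from 13.4 to 21.3 CPM, and H2-DMa, a chain of the DM molecule that loads peptide, from 53.6 to 82.3 CPM. The classical class II chains differed among themselves: H2-Ab1 rose (log2 0.43), whereas H2-Aa (6.75 and 5.90 CPM), H2-Eb1 (7.05 and 6.50 CPM), the invariant chain Cd74 (28.1 and 29.2 CPM) and the class II activator Ciita (2.64 and 2.42 CPM) were not called. Clec9a, the marker of cross-presenting dendritic cells, rose from 0.576 to 1.46 CPM, and the maturation genes Ccr7, Ccl22 and Cd83 by 0.89, 0.81 and 0.69. The genes of this region also appear on alternate contigs, which makes their levels uncertain.

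Genes that prime progenitors for the lymphoid lineages rose in 10 of 18 cases, and none fell (median 0.50, and 0.33 in a fit of the 6 libraries alone). Flt3, the receptor that defines lymphoid-primed multipotent progenitors, at chr5:147330741-147400489, was at 159, 201 and 165 CPM in WT and 350, 362 and 342 CPM in het (log2 1.00 ± 0.08, adjusted p = 3.56e-07). Dntt, the terminal transferase that adds bases at antigen receptor joints, was at 4.86, 7.52 and 6.33 CPM in WT and 27.0, 28.5 and 28.8 CPM in het (log2 2.17 ± 0.12, adjusted p = 4.75e-09). Both genes separated the genotypes without overlap. Satb1, a chromatin organiser of early lymphocytes, rose from 97.9 to 164 CPM, and Il7r, the interleukin-7 receptor, from 4.25 to 8.08 CPM. Hmga2, a gene of fetal-type progenitors, rose from 36.3 to 59.5 CPM. The general lymphoid regulators Ikzf1 (368 and 392 CPM), Tcf3 (123 and 117 CPM) and Bcl11a (147 and 167 CPM) were not called.

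T-cell genes divided evenly, with 4 higher and 4 lower of 19. Thy1, a surface antigen of T cells and of some progenitors, was at 25.4, 23.8 and 21.5 CPM in WT and 8.27, 9.88 and 8.92 CPM in het (log2 -1.38 ± 0.14, adjusted p = 3.42e-06). Lck, the kinase next to the T-cell receptor, fell from 12 to 6.64 CPM and the adaptor Lat from 34.4 to 20.3 CPM. Cd28, a costimulatory receptor, went the other way, from 15.9 ± 1.41 to 29.7 ± 2.04 CPM (log2 0.90 ± 0.09), and Il2ra and Ets1 rose by 1.07 and 0.58. The factors that commit cells to the T lineage, Tcf7 (7.93 and 7.10 CPM) and Gata3 (8.80 and 8.01 CPM), were not called, and Bcl11b had too few counts to be tested, as did the CD3 chains. Cd28 and Lck also lie on alternate contigs.

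In the Notch pathway 4 of 21 genes rose and none fell, with a median of 0.05. Notch1, the receptor that starts T-cell commitment, was at 53.1, 75.4 and 63.7 CPM in WT and 104, 122 and 79.6 CPM in het (log2 0.67 ± 0.17, adjusted p = 0.0301). The call was lost without het replicate 1 (0.0877), WT replicate 1 (0.0914) or WT replicate 3 (0.106), which left 2 of the 4 rises, and in a fit of the 6 libraries alone (0.0808); 11.3% of the exon length of Notch1 overlaps another gene. The direct target Hes1 averaged 1.31 CPM in WT and 0.616 CPM in het and was not called, nor was Nrarp (9.89 and 9.53 CPM). B-cell genes were sparse: 6 of 20 could be tested and 3 rose, Cd79b from 12.4 to 17.2 CPM, Siglecg from 2.86 to 5.93 CPM and Blnk from 0.885 to 2.56 CPM. Cd79b missed the threshold without het replicate 3 (adjusted p = 0.0506). Pax5 and Ebf1 had too few counts.

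Among cytotoxic and innate lymphoid genes 5 of 16 rose and 2 fell. Ccl5, a chemokine of activated lymphocytes, was at 59.8, 45.4 and 42.1 CPM in WT and 104, 103 and 102 CPM in het (log2 1.07 ± 0.15, adjusted p = 0.00115). The 2 falls were Gzmb and Nkg7. In the interleukin-18 and interleukin-1 receptor family 3 of 18 rose (16.7%) and 1 fell (5.56%). Il18r1, the ligand-binding chain of the interleukin-18 receptor, was at 10.9, 10.5 and 10.0 CPM in WT and 7.14, 6.20 and 6.33 CPM in het (log2 -0.68 ± 0.14, adjusted p = 0.00301), and at 2.08, 1.46 and 2.50 CPM in hom. Its coreceptor Il18rap did not move with it (108 and 106 CPM), while the cytokine Il18 rose from 5.47 to 9.20 CPM.

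In the list of cytokine receptors and of the feedback and targets of STAT5, 15 of 29 genes rose and 2 fell (median 0.22). Apart from Flt3, Csf1r, Kit and Il7r, the rises included Il6ra (30.5 to 47.9 CPM) with its signalling chain Il6st (62.8 to 85.1 CPM), and the interleukin-3 receptor chains Il3ra (log2 0.43), Csf2rb (log2 0.31) and Csf2rb2 (79.9 ± 4.90 to 117 ± 6.60 CPM, log2 0.55). The feedback inhibitors of cytokine signalling Socs3 (11.4 to 21.6 CPM) and Cish (39.6 to 50.7 CPM) rose, and Socs1 and Socs2 were not called. Epor, the erythropoietin receptor, fell from 4.50 to 2.51 CPM and Bcl2l1, an anti-apoptotic target of STAT5, from 88.9 to 70.7 CPM.

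Chemokines and their receptors rose in 13 of 21 cases, and 1 fell (median 0.68). Ccl9, an abundant myeloid chemokine, was at 378, 380 and 336 CPM in WT and 703, 672 and 716 CPM in het (log2 0.93 ± 0.08, adjusted p = 1.80e-07). Ccl3, a chemokine of macrophages, rose from 14.6 to 30.8 CPM, and Cxcr2, the neutrophil receptor, from 19.7 to 30.2 CPM. Cxcr4, which holds progenitors in the marrow, rose from 92.5 to 121 CPM. The fall was in Pf4, a platelet chemokine. In the adhesion genes 9 of 30 rose and 2 fell: besides Itgam, Itgb5 rose from 21.9 ± 0.582 to 38.8 ± 2.52 CPM and Itgb7 from 70.3 to 100 CPM, while Itgb1 (463 and 458 CPM), Itga4 (502 and 569 CPM) and Itgal (296 and 309 CPM) were not called.

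Sensors of microbial molecules rose in 14 of 23 cases, and 1 fell (median 0.67). Tlr7, a receptor for single-stranded RNA in endosomes, was at 18.2, 21.5 and 17.8 CPM in WT and 39.9, 43.9 and 41.3 CPM in het (log2 1.12 ± 0.09, adjusted p = 2.09e-07). Tlr9, the endosomal receptor for CpG DNA, rose from 5.83 to 11.3 CPM, and Unc93b1, which carries these receptors to endosomes, from 153 to 198 CPM. Ly86, partner of the receptor CD180, rose from 5.22 to 12.7 CPM. Tlr4, the lipopolysaccharide receptor, fell from 36.2 to 26.7 CPM (log2 -0.44), and Tlr2 (14.5 and 17.8 CPM) and Tlr3 (2.52 and 2.60 CPM) were not called. Interferon-stimulated genes rose in 12 of 37 cases, and none fell, with a smaller median of 0.16. Without het replicate 3 or without WT replicate 3 the number was 7. Irf7, Mx1, Ifit2 and Stat2 rose by 0.25, 0.40, 0.29 and 0.32, while Isg15 (82.3 and 74.8 CPM) and Rsad2 (157 and 169 CPM) did not pass.

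**Figure D4:**
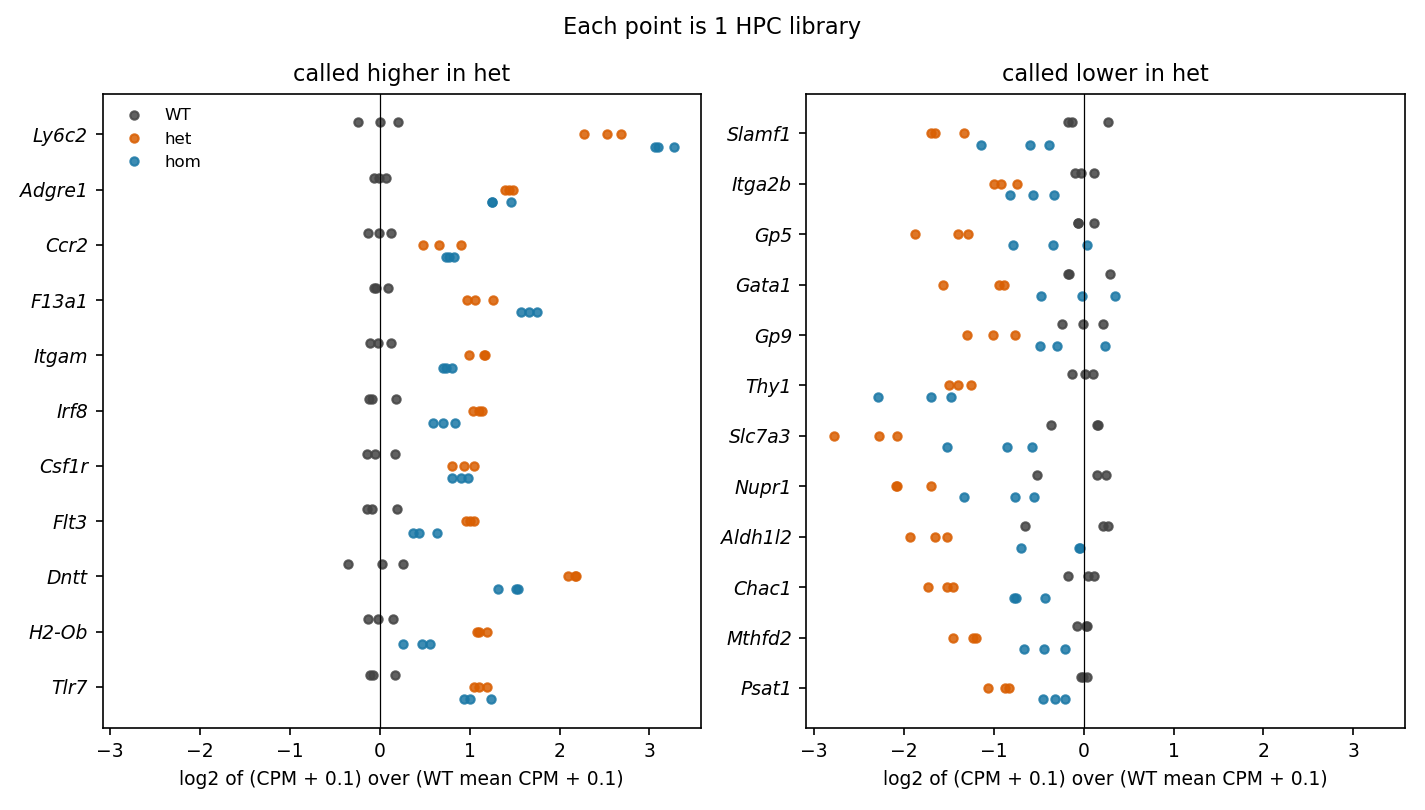
Log2 of CPM + 0.1 in each HPC library relative to the WT mean + 0.1, for 11 genes called higher and 12 called lower in het; each point is 1 library, grey WT, orange het and blue hom. The het points lie on 1 side of all 3 WT points for each of the 23 genes; for Flt3, H2-Ob, Slc7a3, Psat1 and Mthfd2 the hom points fall between the 2 groups, and for Ly6c2 and F13a1 they lie beyond the het points.

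Among genes of megakaryocytes and platelets 9 of 26 fell and none rose, with a median of -0.43. Itga2b, which encodes CD41, at chr11:102453297-102469883, was at 306, 294 and 338 CPM in WT and 157, 187 and 165 CPM in het (log2 -0.88 ± 0.11, adjusted p = 7.12e-05). Gp5 and Gp9, chains of the von Willebrand factor receptor of platelets, fell from 13.9 ± 1.01 to 4.86 ± 1.01 CPM and from 9.24 ± 1.48 to 4.56 ± 0.845 CPM (log2 -1.51 and -1.01). Pf4 fell from 123 to 75.2 CPM, and F2r, a thrombin receptor, from 198 to 154 CPM.

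Other platelet genes varied among the het libraries. Vwf, von Willebrand factor, was at 23.5, 15.9 and 20.8 CPM in WT and 2.64, 17.9 and 5.65 CPM in het, and it was not called (adjusted p = 0.327). Ppbp, a platelet chemokine, was at 32.4, 28.2 and 21.8 CPM in WT and 5.46, 19.1 and 6.77 CPM in het (adjusted p = 0.162). In both genes het replicate 2 was the highest het library. The list mean relative to WT was -1.03, -0.25 and -0.78 in het replicates 1, 2 and 3, so the size of the difference depended on the library. Broad megakaryocyte regulators were not called: Fli1 (137 and 123 CPM), Nfe2 (336 and 321 CPM) and Gfi1b (38.3 and 35.2 CPM).

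Of 19 erythroid genes 4 fell and 1 rose. Gata1, the factor required for red cells and megakaryocytes, was at 15.5, 15.7 and 21.5 CPM in WT and 5.88, 9.49 and 9.11 CPM in het (log2 -1.10 ± 0.24, adjusted p = 0.0125), and 8.82% of its exon length overlaps another gene. Hemgn, a nuclear protein of erythroid precursors, fell from 95 ± 1.78 to 58.7 ± 4.23 CPM (log2 -0.69). The rise was in Lmo2, a bridging factor of the GATA complexes, from 402 to 504 CPM. Klf1 and Tal1 were not called. Gata2, the GATA factor of stem and early progenitor cells, fell from 183 to 148 CPM (log2 -0.31, adjusted p = 0.00518).

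The list of genes linked to stem cell identity held 14 falls and 3 rises among 38, with a median of -0.12. Without het replicate 1 the number of falls was 9. Besides Slamf1, the falls included Tek, the angiopoietin receptor (3.08 to 1.31 CPM), Ctnnal1, the alpha-catenin relative whose reporter marks stem cells (14.6 to 7.83 CPM), Esam (4.96 to 3.21 CPM) and Mycn (154 to 122 CPM). Hlf, a leucine zipper factor of stem cells, went the other way, from 68.6, 75 and 74.1 CPM in WT to 138, 116 and 124 CPM in het (log2 0.80 ± 0.07, adjusted p = 5.04e-07), as did Robo4 (3.56 to 7.20 CPM) and Hoxa9 (35.1 to 41.7 CPM). Mecom (46.3 and 47.3 CPM), Meis1 (155 and 140 CPM), Erg (231 and 255 CPM) and Mllt3 (31.5 and 33.3 CPM) were not called. With DESeq2 6 members rose. Tek, Esam and Slamf1 averaged under 10 CPM in WT.

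Of the 37 lists, the largest share of falls was among genes of the integrated stress response, the programme that ATF4 directs when amino acids are short or protein folding is strained. Of 28 tested genes of that programme and of the unfolded protein response, 13 fell and none rose (median -0.35). Psat1, an enzyme of serine synthesis at chr19:15905123-15925059, was at 409, 415 and 431 CPM in WT and 201, 228 and 235 CPM in het (log2 -0.92 ± 0.07, adjusted p = 1.06e-07). Mthfd2, the mitochondrial folate enzyme, was at 146, 158 and 156 CPM in WT and 55.8, 65.3 and 67.0 CPM in het (log2 -1.29 ± 0.10, adjusted p = 9.49e-07). For both genes the highest het library was far under the lowest WT library.

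Shmt2, which feeds 1-carbon units from serine, fell from 267 ± 6.61 to 161 ± 3.79 CPM (log2 -0.73), Psph from 28.9 to 19.6 CPM, and Asns, asparagine synthetase, from 170 to 71.6 CPM (log2 -1.25). Chac1, which degrades glutathione and is a late target of ATF4, was at 15.9, 19.5 and 18.6 CPM in WT and 5.34, 6.53 and 6.24 CPM in het (log2 -1.57 ± 0.13, adjusted p = 1.61e-07). Trib3 and Ddit3, which encodes CHOP, fell by 1.35 and 1.08. Phgdh, the first enzyme of serine synthesis, averaged 423 CPM in WT and 364 CPM in het and was not called. The chaperones of the endoplasmic reticulum were not called: Hspa5 was at 823 and 831 CPM, Hsp90b1 at 1262 and 1221 CPM, Calr at 1654 and 1769 CPM and their regulator Xbp1 at 259 and 250 CPM.

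Outside that list, 4 genes known as ATF4 targets were among the 10 largest falls of genes that averaged at least 5 CPM in WT, did not overlap between the groups and are not predicted genes. Slc7a3, a carrier of cationic amino acids on chromosome X, was at 6.52, 9.29 and 9.39 CPM in WT and 1.14, 1.92 and 1.66 CPM in het (log2 -2.40 ± 0.25, adjusted p = 3.39e-06). Nupr1, a stress-induced chromatin protein, was at 9.96, 15.9 and 17 CPM in WT and 3.30, 4.33 and 3.31 CPM in het (log2 -1.97). Aldh1l2, a mitochondrial folate enzyme, fell from 17.3, 32.6 and 31.4 CPM to 7.02, 9.38 and 8.53 CPM (log2 -1.70 ± 0.30, adjusted p = 0.00748). Atf5, a relative of ATF4, was at 33.8, 68.9 and 72.4 CPM in WT and 15.2, 21.1 and 18.6 CPM in het (log2 -1.67 ± 0.37, adjusted p = 0.0262).

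WT replicate 1 was the lowest WT library for each of these 4 genes, and it was still above every het library. Atf5 was not called when any het replicate or WT replicate 2 or 3 was left out (adjusted p 0.0653 to 0.0914), with log2 fold changes between -1.95 and -1.49 over all settings. P2rx3, an ATP-gated channel of sensory neurons and another of the 10 largest falls, had the same pattern, at 26.0, 57.9 and 58.5 CPM in WT and 13.4, 15.6 and 15.9 CPM in het (adjusted p = 0.0363, up to 0.114 with a library left out). Unlike Atf5, P2rx3 was also not called with no filter on low counts (0.0618) or in a fit of the 6 libraries alone (0.0567).

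Some cell cycle genes fell, by small amounts. Of 31 genes of the G2 phase and mitosis 13 fell and none rose (median -0.21), and of 31 genes of replication 5 fell and none rose (median -0.16, all 31 changes negative). The replication list mean relative to WT was 0.172, -0.075 and -0.097 in WT replicates 1, 2 and 3. In the het libraries it was -0.199, -0.158 and -0.142, so the size of the difference leaned on WT replicate 1. Mki67, the proliferation antigen, was at 740, 724 and 826 CPM in WT and 577, 659 and 581 CPM in het (log2 -0.33 ± 0.07, adjusted p = 0.00345). Cenpf and Kif20b, proteins of the mitotic apparatus, fell by 0.28 and 0.27, and Aurka, a mitotic kinase, by 0.33. Top2a (763 and 675 CPM) and Cdk1 (73.7 and 70.9 CPM) were not called. Of the replication genes, Tyms, thymidylate synthase, fell from 48.1 ± 5.64 to 35.7 ± 0.645 CPM (log2 -0.43), and Mcm2 from 250 to 209 CPM. The number of G2 and mitosis genes called was 5 without het replicate 1, 6 without WT replicate 3, 7 without WT replicate 1 and 8 without het replicate 2. For replication genes it was 2 without het replicate 1 or WT replicate 1, 8 without hom replicate 3 and 10 with no filter on low counts.

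In the G1 group of 16 genes 4 fell (25.0%) and 2 rose (12.5%), against 6.99% and 9.15% of all tested genes. None rose without het replicate 3 or WT replicate 1. Ccnd1 and Ccnd2, the D-type cyclins, fell by 0.53 and 0.25, and the inhibitor Cdkn1b, p27, rose from 94.5 to 116 CPM. Cdk6 (log2 -0.01) and Cdk4 (324 and 304 CPM) were not called. Ccnd2 was not called without WT replicate 2 (adjusted p = 0.0779), which left 2 falls. Exons of another gene overlap 21.7% of Ccnd1.

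Genes of MYC and of ribosome assembly had 14 falls and 3 rises among 35 (median -0.21). Nop58, a protein of the box C/D snoRNPs that guide rRNA methylation, was at 296, 299 and 283 CPM in WT and 224, 201 and 232 CPM in het (log2 -0.42 ± 0.06, adjusted p = 0.000106). Nop56, Rrp12, Gar1 and Nat10 fell by 0.33 to 0.39. Myc itself was not called (315 and 321 CPM), Mycn fell from 154 ± 2.79 to 122 ± 2.64 CPM, and Mycl rose from 6.21 to 13.9 CPM (log2 1.17 ± 0.14, adjusted p = 1.35e-05). The other 2 rises were the MYC antagonists Mxd1 and Mxi1 (log2 0.50 and 0.34). Of 34 genes of the cytosolic ribosomal proteins 4 were called higher (11.8%, against 9.15% of all tested genes) and none lower. The median was 0.10, with 33 positive changes. The list mean relative to WT overlapped between the groups, at 0.060, 0.088 and 0.154 in het and 0.068, 0.008 and -0.076 in WT. The largest of the 4 rises was Rpl24, from 605 to 720 CPM, which was not called without WT replicate 3 (adjusted p = 0.0599). The 4 calls became 0 without WT replicate 3, and 1 or 2 without each of the other 5 libraries.

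In metabolism, of 31 cholesterol synthesis genes only Abca1, a cholesterol exporter, was called (16.3 to 28.8 CPM). Without WT replicate 1, whose list mean was 0.21 against -0.11 and -0.10 in the other WT libraries, 7 were called higher. No mitochondrially encoded gene of 10 was called, and 2 were called lower without WT replicate 3. Of 34 nuclear respiratory chain genes 2 fell (5.88%), Uqcrq and Ndufv1, and none without het replicate 1 or WT replicate 1. Glycolysis and hypoxia genes had 4 rises, among them Aldoc (210 to 269 CPM), and 1 fall in 32. Their shares were 12.5% and 3.1%, against 9.15% and 6.99% of all tested genes.

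Of 29 p53 targets and apoptosis genes 6 rose (20.7%), among them Sesn1 (136 to 202 CPM), Trp53inp1 (107 to 157 CPM) and Bcl2l11, which encodes the pro-apoptotic BIM (25.0 to 36.0 CPM), and 3 fell (10.3%), among them Bcl2 (159 to 122 CPM). Cdkn1a (94.7 and 88.3 CPM) and Mdm2 (89.7 and 92.8 CPM) were not called.

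Immediate early genes had 4 rises among 22, Dusp5, Btg2, Nr4a3 and Jun. Their list mean relative to WT was 0.74 in het replicate 1 and 0.13 and 0.10 in the other het libraries, and their median log2 fold change of 0.24 became 0.09 without het replicate 1. Jun was at 49.5 CPM in het replicate 1 and at 29.1 and 28.8 CPM in replicates 2 and 3, against 18.5 to 23.1 CPM in WT (adjusted p = 0.0415), and it was not called in a fit of the 6 libraries alone (0.105) or without WT replicate 1 (0.104), 2 (0.0834) or 3 (0.133). Nr4a3, an orphan nuclear receptor, was even across the het libraries, at 6.18, 7.02 and 6.53 CPM against 4.13, 2.99 and 3.54 CPM in WT (log2 0.89 ± 0.19, adjusted p = 0.00361), and it was at 0.905, 1.84 and 1.55 CPM in hom.

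Of 26 genes known as bone targets of Runx2, 11 could be tested and 7 had 0 counts in all 6 libraries. Of the 11, 9.09% were called in each direction, against 9.15% and 6.99% of all tested genes. One rose, the secretory kinase Fam20c (1.83 to 4.06 CPM, adjusted p = 0.0252), and 1 fell, the collagen chaperone Serpinh1 (2.35 to 1.08 CPM, adjusted p = 0.0425), and both calls depended on single libraries: Fam20c was lost without het replicate 3 (0.121), WT replicate 1 (0.0968) or WT replicate 2 (0.0824), and Serpinh1 without any 1 of the 6 (adjusted p up to 0.164). Spp1, osteopontin, was not called (13.8 and 16.6 CPM). Of the 215 genes that start within 5 Mb of Runx2 on chromosome 17, 90 could be tested, 5 rose and 3 fell (median -0.01); the rises were 3 without het replicate 1, 2 without het replicate 2 and 8 with no filter, and the falls 5 without hom replicate 3 and 6 with no filter or in a fit of the 6 libraries alone. The 5 and 3 are 5.56% and 3.33% of them, against 9.15% and 6.99% of all genes.

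Others of the 10 largest rises and falls came from no single list. Among the rises Wfdc17, a secreted protein of myeloid cells, was at 17.4, 16.9 and 14.1 CPM in WT and 51.3, 48.5 and 56.9 CPM in het (log2 1.70 ± 0.09, adjusted p = 4.75e-09). Emp1, an epithelial membrane protein, rose from 10.6 ± 0.705 to 31.5 ± 1.49 CPM (log2 1.57), Sdc1, the proteoglycan CD138, from 20.4 to 58.8 CPM (log2 1.53), and Pde2a, a cyclic nucleotide phosphodiesterase, from 8.60 to 22.6 CPM (log2 1.40). Acot1, Olfm1 and Sgsm1 rose by 1.66, 1.58 and 1.5, to means of 6.82 to 11.1 CPM.

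Among the falls Soat2, which esterifies cholesterol, fell from 17.6 to 5.20 CPM (log2 -1.76), and Lhcgr, the luteinising hormone receptor, from 5.04 to 1.49 CPM (log2 -1.75). Angptl6 and Xlr3b fell by 1.75 and 2.10. Xlr3b belongs to a family of near-identical X-linked copies and also lies on an alternate contig, and 10.9% of the exons of Angptl6 overlap another gene, so their levels are uncertain.

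RUNX proteins bind the core sequence TGTGGT or TGCGGT, or ACCACA or ACCGCA on the other strand. In the RefSeq promoter table of the GRCm38.p6 assembly, the 250 bases before the start held 1 of these 4 words in 18.6% of all 32851 promoters and in 18.1% of the promoters of tested genes. The share was 18.8% for genes that rose and 19.1% for genes that fell, so it hardly differed between the sets. A match is a description of the letters, not of binding. Of the named genes, these 3 had the largest changes with a match in a window free of annotated exons, and they are printed to show where the word lies, 5′ to 3′ along the gene, with the match in capitals. They are Dpysl5 at chr5:30711314-30711563 on the plus strand, with the match 132 bases before the start, Wfdc17 at chr11:83703806-83704055 on the plus strand, 216 bases before it, and Klrb1c at chr6:128788642-128788891 on the minus strand, 89 bases before it.
Dpysl5: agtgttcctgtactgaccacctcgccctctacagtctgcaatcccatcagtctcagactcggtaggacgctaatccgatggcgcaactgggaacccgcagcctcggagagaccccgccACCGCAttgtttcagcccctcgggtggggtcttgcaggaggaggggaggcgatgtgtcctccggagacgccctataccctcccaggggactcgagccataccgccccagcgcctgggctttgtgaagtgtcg
Wfdc17: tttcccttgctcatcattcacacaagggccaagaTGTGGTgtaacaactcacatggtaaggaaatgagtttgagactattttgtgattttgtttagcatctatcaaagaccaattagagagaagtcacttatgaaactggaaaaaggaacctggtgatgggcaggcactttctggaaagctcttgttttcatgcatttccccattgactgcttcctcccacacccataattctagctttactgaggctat
Klrb1c: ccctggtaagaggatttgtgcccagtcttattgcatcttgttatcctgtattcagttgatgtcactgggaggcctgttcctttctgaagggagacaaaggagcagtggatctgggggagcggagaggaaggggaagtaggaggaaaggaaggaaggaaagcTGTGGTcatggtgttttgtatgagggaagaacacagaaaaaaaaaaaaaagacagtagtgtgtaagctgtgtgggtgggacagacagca
Dpysl5, a protein of growing axons, was at 1.79, 1.63 and 1.18 CPM in WT and 0.0600, 0.165 and 0.146 CPM in het, the latter from 1 to 3 counts a library. Klrb1c, a receptor of natural killer cells, rose from 0.409 to 1.25 CPM (log2 1.61 ± 0.35, adjusted p = 0.00393), at low levels in both groups.

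The hom libraries show where a het level lay between the genotypes. Hom against WT used the same WT libraries and hom against het the same het libraries, so the 3 comparisons are not independent and their values are set side by side. Many genes below were chosen by their change in het, which favours extreme het levels. The p-values of hom against het do not allow for that choice. Hom against WT called 1276 genes (9.21%), 682 higher (4.92%) and 594 lower (4.29%). Hom against het called 1303 (9.4%), 503 higher (3.63%) and 800 lower (5.77%) in hom. Runx2 fell by 0.27 in het and by 2.42 in hom against WT, and hom differed from het by -2.14 (adjusted p = 3.91e-13). Il18r1 fell by 0.68 in het and 2.38 in hom (hom against het -1.70, adjusted p = 1.93e-05), and Ccnd1 by 0.53 and 1.10.

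Many of the het changes were not larger in hom. Among MHC class II and dendritic cell genes, 16 of 24 were lower in hom than in het and none higher. Against WT, 10 of the 24 were lower in hom and 4 higher. The list mean relative to WT was -0.36, -0.32 and -0.44 on the log2 scale in the hom libraries. In the het libraries it was 0.32, 0.61 and 0.45. For Flt3 the WT mean was 175 CPM, the het mean 351 CPM and the hom mean 246 CPM (hom against het -0.52, adjusted p = 0.000767), H2-Ob 80.3, 176 and 109 CPM (-0.70), Satb1 97.9, 164 and 110 CPM (-0.58), Emp1 10.6, 31.5 and 13.1 CPM (-1.27, adjusted p = 1.54e-06), and Dntt 6.24, 28.1 and 17.4 CPM (-0.70). In the stress response list 9 of 28 were higher in hom than in het and 1 lower. Psat1 averaged 419, 221 and 335 CPM (hom against het 0.59, adjusted p = 5.00e-05) and Mthfd2 153, 62.7 and 114 CPM (0.86). Of the G2 and mitosis genes 9 of 31 were higher in hom than in het, none lower, and none differed between hom and WT; Mki67 averaged 763, 606 and 754 CPM. Gata1 averaged 17.6, 8.16 and 17.5 CPM.

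Myeloid genes differed among themselves in hom. Past the test, the hom level was above the het level for 2 of 20 monocyte and macrophage genes and below it for 4. Itgam averaged 79.4, 172 and 133 CPM in WT, het and hom (hom against het -0.36, adjusted p = 0.00253), Irf8 61.4, 131 and 101 CPM (-0.38), Ccl9 365, 697 and 496 CPM (-0.49) and Wfdc17 16.1, 52.2 and 28.9 CPM (-0.86). Others were higher in hom than in het. Ly6c2 averaged 1.62, 9.63 and 15.1 CPM in WT, het and hom (hom against het 0.65, adjusted p = 0.00303), F13a1 16.4, 35.3 and 52.0 CPM (0.56), Ctsg 180, 221 and 305 CPM (0.47) and Elane 30.5, 55.0 and 91.0 CPM (0.73). Of 18 neutrophil granule genes 10 were higher in hom than in het and 1 lower. Adgre1 (26.5 and 24.5 CPM), Csf1r (103 and 100 CPM) and Tlr7 (41.7 and 40.3 CPM) did not differ between het and hom past the test. When het replicate 2 was left out the calls of hom against het numbered 701, and without hom replicate 3 they numbered 797.

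The same heterozygous contrast in HSC called 5 of 14959 genes (0.0334%) in the fit of all 9 HSC libraries, 4 higher (0.0267%) and 1 lower (0.00668%), while 2067 had an unadjusted p under 0.05. The 5 became 2 without het replicate 1, het replicate 3 or WT replicate 1, and 3 without WT replicate 2. DESeq2 called 220, and a fit of the 6 WT and het libraries alone called 299. The 1 that fell was Runx2, from 126, 133 and 130 CPM to 90, 96.0 and 87.6 CPM (log2 -0.51 ± 0.07, adjusted p = 0.0167). The difference between its change in HPC and in HSC did not pass the test (0.25 ± 0.09, adjusted p = 0.196). The common dispersion, a measure of spread between libraries of a group, was 0.0128 in the HSC fit and 0.00483 in the HPC fit. A change of a given size was therefore harder to call in HSC. In HSC the median log2 fold change was -0.23 for replication genes and -0.16 for G2 and mitosis genes, against -0.16 and -0.21 in HPC. For monocyte and macrophage genes it was -0.10, against 0.74 in HPC.

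The difference between the 2 populations was tested gene by gene over all 18 libraries, and 300 of 15431 genes were called (1.94%), 176 with a higher (1.14%) and 124 with a lower change (0.804%) in HPC. The count was 138 without HPC WT replicate 3, 174 and 176 without HPC het replicates 1 and 3, 199 without HPC WT replicate 2, 175 without HSC het replicate 3, and 188 to 194 without 1 of the 3 HSC WT libraries. Flt3 was at 193 CPM in WT and 218 CPM in het HSC, a change of 0.17 against 1.00 in HPC (difference 0.84 ± 0.12, adjusted p = 0.000351). Irf8 was at 11.8 CPM in both HSC groups (difference 1.11 ± 0.14, adjusted p = 0.000165). Slamf1 was at 20.3 and 20.5 CPM in HSC (difference -1.59 ± 0.23, adjusted p = 0.000472), and Itga2b at 129 CPM in both (difference -0.87). Emp1 rose in HPC and was at 16.1 and 12.5 CPM in HSC (difference 1.94 ± 0.18, adjusted p = 1.05e-06). Of the 28 stress response genes, 10 had a lower change in HPC than in HSC and none a higher one; Psat1 went from 177 to 150 CPM in HSC (difference -0.68 ± 0.14, adjusted p = 0.00898). No member of the lists for replication, G2 and mitosis, ribosome biogenesis or interferon response was called for this difference. The same held for the lists of cytosolic ribosomal proteins, cholesterol synthesis and glycolysis. With 1.94% of all genes called, a list of 31 to 37 genes can easily hold no call, so nothing is read from these absences.

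**Figure D5:**
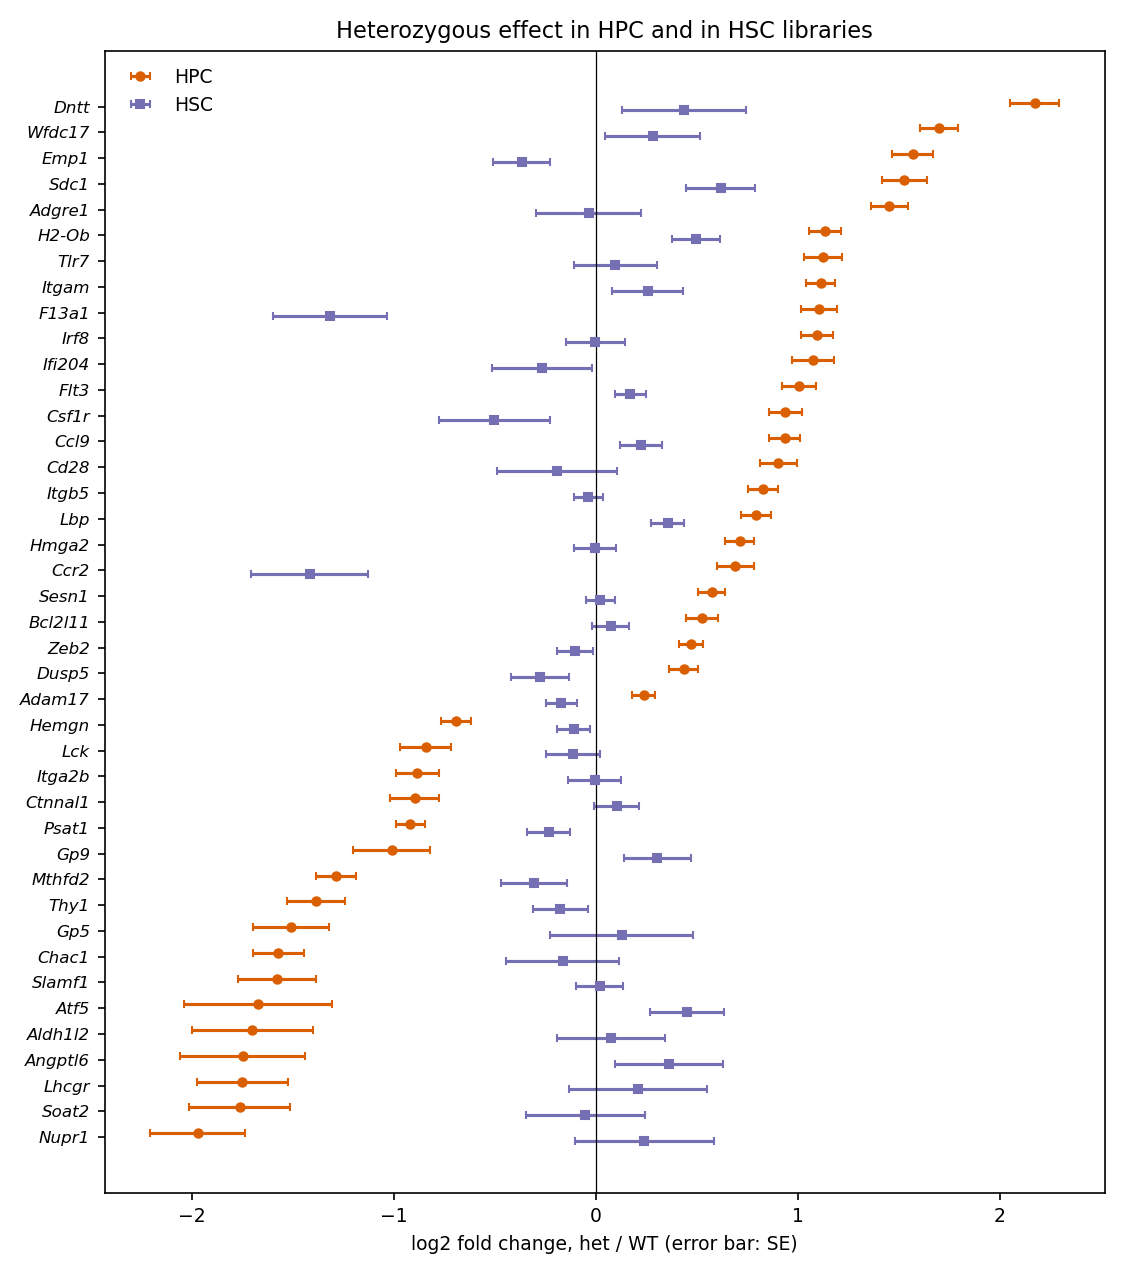
Log2 fold change of het over WT in HPC (orange circles) and HSC (purple squares), with the SE of each fit, for 41 named genes whose change differed between the populations at an adjusted p under 0.05 and whose group means were all at least 1 CPM. F13a1, Ccr2 and Csf1r rise in HPC and have negative values in HSC, and Slamf1, Itga2b and Thy1 fall in HPC with HSC values near 0.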

How the data were processed

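Polyadenylated RNA of HPC and HSC was sequenced in 18 libraries, and the deposited values are raw counts per gene. Per the file headers they were made with featureCounts 2.0.6 from read pairs, without regard to strand, over exons of an mm10 RefSeq annotation. Per the submitters' processing notes, FastQC, Trim Galore 0.6.10 and STAR 2.7.11a were used on the reads; these notes name mm39, and positions here are those of the mm10 annotation in the files. Where gene models overlap, reads in the common exons go to neither gene, which lowers both.

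For each genotype contrast, R 4.3.3 ran edgeR 4.0.16 (robust quasi-likelihood F test) after filterByExpr and TMM scaling. Adjustment was Benjamini-Hochberg, over every gene that passed the filter. One fit held the 9 HPC libraries, one the 9 HSC libraries and one all 18. Called means an adjusted p under 0.05, and rose or fell is written of such genes alone. Each fit's TMM factors gave its CPM, with the SD of 3 libraries after ±; log2 fold changes carry the SE of the fit. Depth was 16663497 to 22284511 counts in the 6 libraries compared. No 2 libraries of a group were duplicates, and the procedure was tested on simulated data. Floors in counts cover counting error only.

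The comparison, the 37 gene lists and the named genes were chosen with earlier results of these data known, so no list is independent evidence of its direction. Named genes are Runx1, Runx2, Runx3 and Cbfb; in each direction the 10 largest called changes, where libraries did not overlap and the higher group averaged 5 CPM or more, leaving predicted genes aside; from every list the 4 called members of smallest p, or fewer; Procr, Slamf1, Kit and Ly6a; and the 4 higher and 4 lower for the difference between populations. Other genes are members of the lists, named after their values were seen. Of these named genes, Runx3, H2-Ob, H2-DMa, Cd28, Lck, Ifi204, Padi4 and Xlr3b lie on alternate contigs. Alternatives were DESeq2 1.42.0, RLE size factors, other filters, fewer groups, a replicate block and leaving out each library. The CUT&Tag samples were not analysed here, and some genes are not reported here.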

Additional observations from a re-analysis of the deposited data

Results flagged for a closer look

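The effect of heterozygosity differed between HPC and HSC for 300 genes by a test of the difference itself over all 18 libraries. The populations also differed in sex, and population and sex cannot be told apart. Values below are the log2 change in HPC minus that in HSC, for named genes among the 300.

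The change was higher in HPC for myeloid genes: F13a1 (2.41), Ccr2 (2.11), Csf1r (1.45), Adgre1 (1.49), Itgam (0.87), Irf8 (1.11), Zeb2 (0.58), Lbp (0.44), Ccl9 (0.72), Wfdc17 (1.43), Tlr7 (1.03) and Ifi204 (1.36). The F13a1 and Ccr2 values owe much to HSC. Their changes were 1.10 and 0.69 in HPC, and -1.32 and -1.42 in HSC, where neither was called. Their WT HSC levels were only 3.53 and 3.61 CPM. It was also higher for the lymphoid and antigen presentation genes Flt3 (0.84), Dntt (1.75), Hmga2 (0.72), Cd28 (1.11) and H2-Ob (0.64). Other genes with a higher change were Emp1 (1.94), Olfm1 (1.78), Sdc1 (0.92), Itgb5 (0.87), Adam17 (0.41), Sesn1 (0.56), Bcl2l11 (0.46), Dusp5 (0.72) and Nr4a3 (2.11). Nr4a3 averaged 1.65 CPM in WT and 0.705 CPM in het HSC, and Olfm1 0.771 and 0.691 CPM, so the sizes of these 2 differences are uncertain.

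For Ly6c2 (4.86), Prg2 (3.36), Ly86 (2.90), Ifitm6 (4.04) and Kmo (6.22) a group lay at or near 0 counts, so these fitted values depend on the prior count and are no measure of size. The same holds for Dpysl5 (-3.51).

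The change was lower in HPC for the megakaryocyte and stem cell genes Gp5 (-1.65), Gp9 (-1.31), Itga2b (-0.87), Slamf1 (-1.59) and Ctnnal1 (-0.99), for the erythroid gene Hemgn (-0.58), and for the T-cell genes Thy1 (-1.20) and Lck (-0.72). It was lower for the stress response genes Psat1 (-0.68), Mthfd2 (-0.97), Chac1 (-1.39), Aldh1l2 (-1.75), Nupr1 (-2.20) and Atf5 (-2.11). Angptl6 (-2.10), Lhcgr (-1.95) and Soat2 (-1.70) also had a lower change.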

How the results depend on the processing

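The count for het against WT in HPC, 2236, was 2232 with DESeq2, 2399 without a filter and 1604 to 1813 with 1 library left out. With the replicate number as a block it was 2342; same-numbered libraries did not deviate together (correlations of -0.04, 0.09 and -0.08), so the numbers were not taken as pairing. Without hom replicate 3, a choice made after seeing the data, it was 2545. Hom against het, with 1303, gave 701 to 1179 with 1 library left out. The HSC count of 5 was 220 with DESeq2, 399 without a filter, 299 in a fit of the WT and het libraries alone, and 2 to 7 with 1 library left out. The count for the difference between populations, 300, was 499, 592 and 514 in those 3 settings and 138 to 292 with 1 library left out. Of 141 called named genes, 118 were called in all 13 alternatives, 23 were lost in at least 1, and none of the 144 tested reversed. Depth limits genes under 1 CPM, of which 4.32% were called, against 19.9% from 100 CPM upward.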

Other observations

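Further groups were assembled after their values had been seen, so they are descriptions. Of 20 cytosolic aminoacyl-tRNA synthetase genes, which charge tRNAs for translation, 14 fell in het HPC and none rose, with a median log2 fold change of -0.55. Nars was at 573, 595 and 583 CPM in WT and 333, 369 and 391 CPM in het (log2 -0.68). Of the 17 mitochondrial synthetases 2 fell, with a median of -0.11. Amino acid carriers had 9 falls and 4 rises among 20, including Slc7a5 (log2 -1.14), and the rises were 2 without het replicate 1, WT replicate 1 or WT replicate 2.

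Lysosomal enzymes and membrane proteins rose in 28 of 46 cases, and none fell (median 0.27). Psap, the precursor of saposins, was at 410, 466 and 434 CPM in WT and 642, 696 and 684 CPM in het (log2 0.63). Of 8 GIMAP GTPases, which act in lymphocyte survival, 6 rose (median 0.63), and 6 were lower in hom than in het. Gimap4 was at 22.4, 24.1 and 19.0 CPM in WT and 54.6, 52.2 and 57.3 CPM in het (log2 1.33). Of 11 IFI200 genes, sensors of DNA, 10 rose (median 0.81).

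Sva, on chromosome 6, had 0 counts in all 6 WT libraries of HPC and HSC. In het HPC it had 37, 19 and 34 counts and in het HSC 42, 58 and 63. The hom libraries also had it, with 25, 24 and 34 counts in HPC and 23, 61 and 48 in HSC. Against 3 counts over the WT group, it was at least 35.8-fold higher in het HPC.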
